A study of Saccharomyces cerevisiae with 210 samples.

Results

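The genes described here are the siderophore transporters ARN1, ARN2, SIT1 and ENB1 and the cell-wall mannoproteins FIT1, FIT2 and FIT3 of budding yeast, Saccharomyces cerevisiae. They were chosen by name, and all 7 were on the array among 5656 genes, each with 1 probe set that names no other gene. Array signals were set in log2 units by the authors with RMA, a method that combines the probes of a probe set. Mutants in 2 glutaredoxin genes (grx1, grx2), 2 peroxidase genes (gpx1, gpx2), glutathione reductase (glr1) and the regulator yap1 were set beside a wild type, all labelled as strain BY4743, a diploid laboratory strain. Each of the 7 genotypes was grown as 6 cultures in 1 L fermentors to the middle of exponential growth, and 3 of the 6 received 0.19 mM CHP, read here as the oxidant cumene hydroperoxide, while 3 were untreated controls. Every culture was sampled at 0, 3, 6, 12 and 20 min, which gave 210 arrays in 70 groups of 3 cultures. The labels name the mutant gene but not how it was altered.

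Siderophores are small molecules that bind ferric iron tightly. Budding yeast makes none of its own but takes up those of other microbes: Arn1 carries ferrichromes, Arn2 triacetylfusarinine C, Sit1 ferrioxamine B and Enb1 enterobactin, and the Fit proteins hold siderophore iron in the cell wall. The transcription factor Aft1, with its relative Aft2, turns these genes on when iron is scarce, and the glutaredoxins Grx3 and Grx4 with Fra1 and Fra2 (the gene BOL2) keep Aft1 inactive when iron-sulfur clusters are plentiful.

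ARN1 (YHL040C) and ARN2 (YHL047C) lie on chromosome VIII, SIT1 (YEL065W) on V, FIT1 (YDR534C) on IV and ENB1 (YOL158C) on XV. FIT2 (YOR382W) and FIT3 (YOR383C) are neighbours on XV. FIT1 gave a dim signal, above that of 25.3% of genes on the array, and the other 6 gave signals above 82.3% to 99.7% of genes. Such signals depend on the probes, so RNA levels were not compared between genes.

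Each of the 6 mutants had less signal for its own mutant gene in all 30 of its arrays than any wild-type array. Several haploid and mating genes, which a diploid represses, went against the label in gpx2. Of 12 such markers, 5 (STE2, MFA2, STE4, STE18 and RME1) were higher in every gpx2 array than in any other array. STE3, MF(ALPHA)1 and MF(ALPHA)2 were not raised, with gpx2 medians of 3.695, 5.74 and 4.64 against 3.90, 6.04 and 4.71 in wild type. The log2 of the summed signal of all 12 was 11.12 to 13.10 in gpx2 against 8.89 to 9.42 in wild type. MFA2, with a gpx2 median of 12.43, was the brightest marker there and weighs most in that sum. The gpx2 results below are those of the library labelled gpx2, and the part of mating type in them was not tested. Beyond the grx2 cultures described next, several arrays at 0 min stood apart. yap1 control culture 1 was low in ARN1, ENB1, FIT2 and FIT3, and the arms of yap1 differed at 0 min in 6.31% of genes. grx1 CHP culture 1 was high in the 4 transporters, and glr1 control culture 3 was low in ARN2 and ENB1. Wild-type CHP culture 1 had SRX1, the peroxide-induced sulfiredoxin gene, at 10.99, against 6.13 to 7.28 in the other wild-type cultures, and its members lay within the range of those cultures except FIT2 (12.53, against up to 12.49).

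Before CHP, the 7 genes were at similar levels in most cultures, except that 3 of the 6 grx2 cultures were low. These were CHP culture 1 and control cultures 1 and 2. ARN2 stood at 6.02, 9.87 and 9.46 in the grx2 CHP cultures and at 6.09, 6.11 and 9.77 in the grx2 controls, against 10.71 to 11.40 in the 6 wild-type cultures. SIT1 stood at 6.90, 9.97 and 9.90 in the grx2 CHP cultures and at 5.23, 6.93 and 10.09 in the grx2 controls, against 9.86 to 10.38 in wild type. The same 3 cultures were low in both genes, and the other 3 lay within the wild-type range for SIT1 and below it for ARN2.

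The other members split along the same cultures. ENB1 was at 7.58 and, in the controls, 7.35 and 7.45 in the low cultures, and at 10.32, 10.04 and 10.05 in the other 3, against a wild-type range of 10.72 to 11.32. FIT2 was at 9.05 in CHP culture 1 and at 10.61 and 8.62 in controls 1 and 2, against 12.03 to 12.53 in wild type. ARN1 was at 6.52, 6.50 and 6.80 in these 3 cultures, against 9.14 to 9.47 in wild type. FIT3 was at 12.31, 12.45 and 12.15 in them, against 13.08 to 13.45 in wild type. FIT1, dim throughout, was at 5.07, 5.20 and 5.04, against 5.60 to 6.54 in wild type.

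Set against all 36 cultures of the other genotypes, all 7 members were below the lowest of them in grx2 CHP culture 1 and control culture 2, and 6 of 7 in control culture 1, where FIT1 was within the range. The background was 3.41%, 6.95% and 4.31% of all genes in those 3 arrays. In the other grx2 cultures 0 of 7 members were below that range, with 0.636%, 1.94% and 1.84% of all genes below it.

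**Figure D1:**
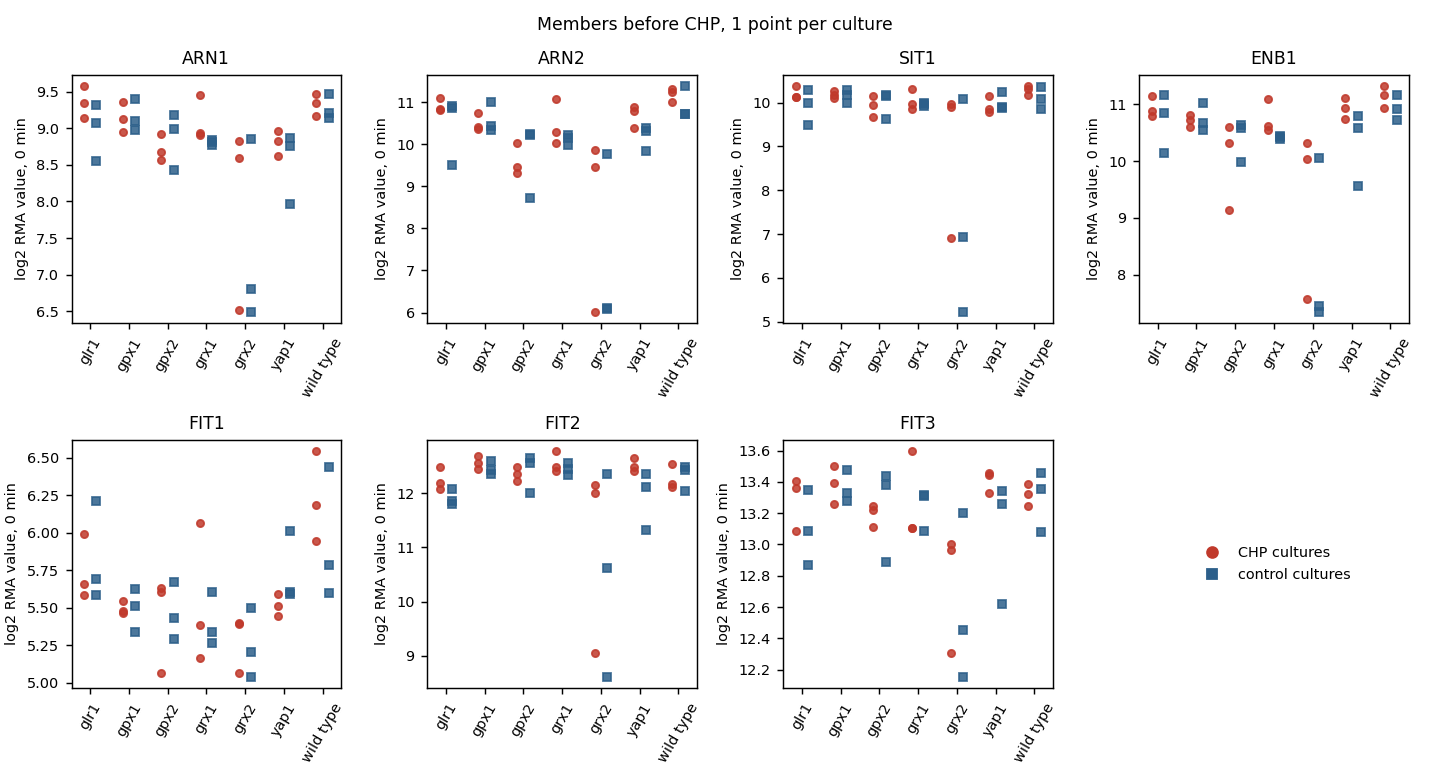
Log2 RMA value of each member at 0 min (vertical axis) in the 3 CHP cultures (red circles) and the 3 control cultures (blue squares) of each genotype (horizontal axis), 1 point per culture. In grx2, 1 CHP culture and 2 control cultures lie far below the rest, as for ARN2 at 6.02, 6.09 and 6.11.

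Other genes of iron handling were low in the same cultures. Of a list of 32 such genes outside the members, 16 were below the range of the other genotypes in grx2 CHP culture 1, and 17 and 18 in control cultures 1 and 2, against 1, 0 and 1 in CHP culture 2, CHP culture 3 and control culture 3. TIS11, which codes for a protein that promotes decay of messages for iron-using proteins, was at 5.67, 9.52 and 9.64 in the CHP cultures and 4.39, 5.52 and 9.51 in the controls of grx2, against 9.59 to 9.87 in wild type. FET3, the multicopper ferroxidase of high-affinity iron uptake, was at 10.33, 12.08 and 12.01 in the CHP cultures and 8.71, 10.24 and 12.01 in the controls.

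GRX4, whose product restrains Aft1, ran the other way. It was at 9.11 in grx2 CHP culture 1 and at 9.41 and 9.15 in control cultures 1 and 2, above all 36 cultures of the other genotypes, whose highest was 7.99. The other 3 grx2 cultures lay at 7.76, 7.98 and 7.66. CCC1, the importer of iron into the vacuole, was above the other genotypes in grx2 control culture 1, at 9.44. The share of all genes above that range was 6.59% in CHP culture 1, 7.02% in control culture 1 and 12.5% in control culture 2, against 0.99% to 2.12% in the other 3.

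Over the 6 grx2 cultures against the 6 of wild type at 0 min, limma called all 7 members lower, while it called 29.1% of all genes. ARN2 differed by -3.18 ± 0.49 (SE; limma, adjusted p = 5.49e-07), ENB1 by -2.24 ± 0.32 and SIT1 by -2.03 ± 0.42. Because of the split, these means describe no single grx2 culture. With the 3 low cultures left out, 3 members were still called lower, beside 5.57% of all genes, ARN2 by -1.35 (adjusted p = 0.00212), ENB1 by -0.92 (adjusted p = 0.00212) and FIT1 by -0.64 (adjusted p = 0.0475), and SIT1 differed by -0.19 and FIT2 by -0.08, neither called. On the iron list 19 of 32 genes were lower and 3 higher in grx2 than in wild type over all cultures, led by TIS11 at -2.34, FRE2 at -1.72 and FRE5 at -1.51 and by GRX4 at 0.88, CCC1 at 0.56 and GRX3 at 0.27. FRE2 and FRE5 belong to the family of surface metal reductases.

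The low control cultures stayed low in ARN2 and ENB1 through the sampling. In controls 1 and 2, ARN2 at 20 min was at 5.80 and 6.66, and ENB1 was at 7.52 and 8.66. In the CHP-treated low culture, ENB1 was at 7.58, 7.93, 8.39, 10.03 and 10.99 at 0, 3, 6, 12 and 20 min, and ARN2 was at 6.02 at 0 min and 8.08 at 20 min. The low culture given CHP thus ended at the ENB1 level of the other CHP cultures of grx2, which were at 10.74 and 11.46 at 20 min. TIS11 in that culture was at 5.67, 6.18, 8.33, 10.22 and 10.27 over the 5 times, and GRX4 was at 9.11 at 0 min and 7.56 at 20 min.

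SIT1 did not follow ENB1 there. It was at 6.90 at 0 min and 7.32 at 20 min in the low CHP culture, and at 5.23 and 6.77 in control 1 and 6.93 and 8.57 in control 2 at those times. FIT2 in control culture 1 was at 10.61, 10.21, 9.69, 8.71 and 7.60 at the 5 times, the steady decline of a culture that received no oxidant. In control culture 3, which was never low, FIT2 stayed between 12.04 and 12.35.

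**Figure D2:**
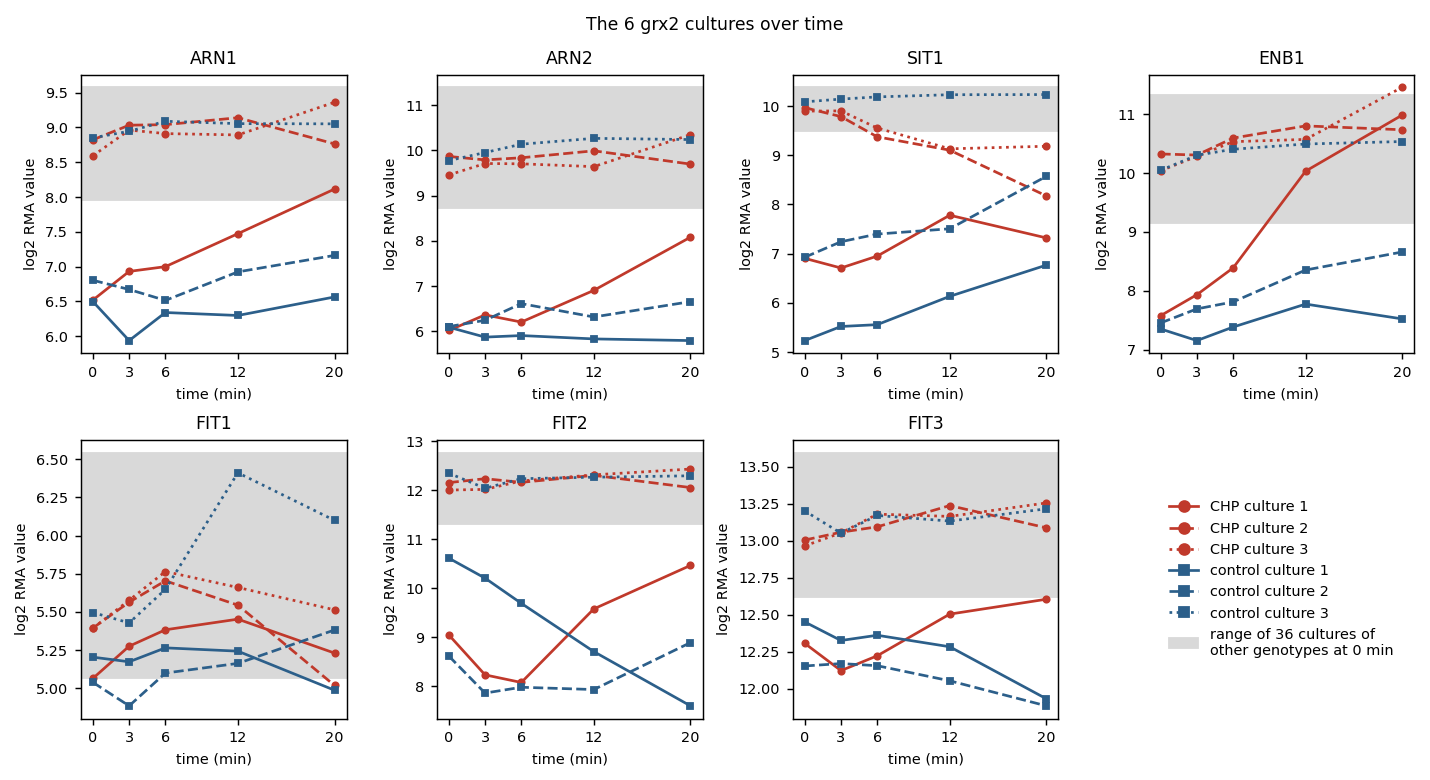
Log2 RMA value of each member (vertical axis) against time in minutes in the 3 CHP cultures (red) and 3 control cultures (blue) of grx2, 1 line per culture, with the range of the 36 cultures of the other genotypes at 0 min in grey. ENB1 in CHP culture 1 runs up to 10.99 by 20 min while SIT1 in it is at 7.32.

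In the genotypes other than grx2, differences before CHP were smaller. limma called FIT1 lower in gpx2 (-0.63 ± 0.17, adjusted p = 0.00505), grx1 (-0.61 ± 0.17, adjusted p = 0.00631) and gpx1 (-0.59 ± 0.17, adjusted p = 0.0063), and ARN2 lower in gpx2 (-1.40 ± 0.49, adjusted p = 0.0345). Of 7 members that is 2 in gpx2, where 17.6% of all genes were called, and 1 each in grx1 (21.5%) and gpx1 (29%). In yap1 (12.2%) and glr1 (0.0707%) no member was called. FIT1 in wild type was itself spread, from 5.60 to 6.54, and without wild-type control culture 3 the calls in gpx1 and grx1 were lost (adjusted p = 0.053 and 0.0573). The ARN2 call in gpx2 was lost when any 1 of 6 cultures was left out, with adjusted p-values of 0.0633 to 0.11, namely gpx2 control 3, gpx2 CHP 2 or 3, wild-type control 3, or wild-type CHP 2 or 3.

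ARN2 in gpx2 was at 10.04, 9.33 and 9.47 in the CHP cultures and 10.22, 10.26 and 8.74 in the controls, all below the lowest wild-type culture at 10.71. Leaving the grx2 arrays out of the fit narrows the shared spread, which for SIT1 goes with an SE of a CHP difference of 0.20 instead of 0.59. In that fit, chosen after seeing the data, the calls before CHP outside grx2 numbered 11 instead of 4, all lower than wild type, beside 0.407% of all genes in glr1, 16.7% in yap1, 21.8% in gpx2, 26.4% in grx1 and 34.5% in gpx1. They took in ARN1, ENB1 and ARN2 in gpx2, ARN2 and ENB1 in grx1, and ARN1 and ARN2 in yap1, with FIT1 in each of these mutants but glr1. In order of mean level at 0 min, wild type was highest for ARN1, ARN2, SIT1, ENB1 and FIT1, and gpx1 was highest for FIT2 and FIT3. The SIT1 means outside grx2 lay between 9.96 and 10.19, with SDs of 0.11 to 0.32 (n = 6), so that neighbours in that order do not differ beyond their spread.

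With CHP, ENB1 lay above the controls late in the course and SIT1 below them. ENB1 in wild type at 20 min was at 11.61, 11.78 and 11.96 with CHP, against 10.62, 10.74 and 11.16 in the controls, with no overlap. SIT1 in wild type at 12 min was at 9.37, 9.70 and 9.77 with CHP, against 9.94, 10.01 and 10.26 in the controls, again with no overlap, and by 20 min the arms overlapped. Of all genes in wild type, 19% lay wholly above the controls at 20 min and 26% wholly below them at 12 min. The CHP values were thus above the controls for the enterobactin carrier and, for a time, below them for the ferrioxamine carrier.

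Counted in cultures, ENB1 at 20 min was above its own 0 min value in 21 of 21 CHP cultures, with a median change of 0.76, against 12 of 21 control cultures with a median of 0.02. Of all genes, 12.5% were higher in all 21. The lowest CHP change was 0.23 in glr1 culture 3 and the highest 3.41 in grx2 culture 1. In every genotype the 3 CHP values were above the 3 control values at 20 min, a separation in that direction that 16.9% to 32.3% of genes showed, depending on the genotype.

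SIT1 at 12 min was below its own 0 min value in 19 of 21 CHP cultures (median -0.73), against 12 of 21 controls (median -0.02). Of all genes 25.6% were lower in at least 19 CHP cultures at that time. At 20 min it was lower in 20 of 21 CHP cultures (median -0.57), against 14 of 21 controls (median -0.08), where 24.2% of genes were lower in at least 20. The exceptions at 12 min were grx2 CHP culture 1, with 0.88, and yap1 CHP culture 1, with 0.05, and at 20 min again grx2 CHP culture 1, with 0.42.

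**Figure D3:**
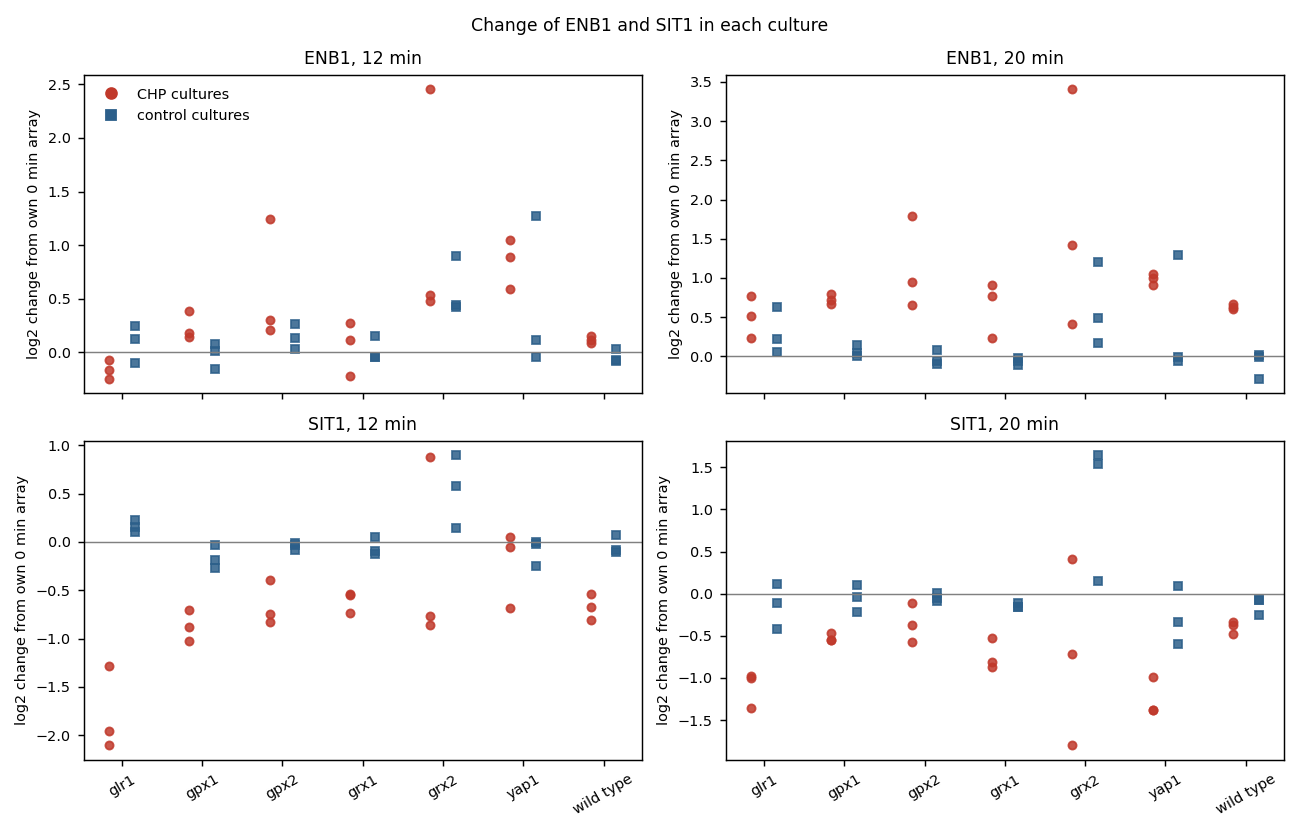
Log2 change of ENB1 (top) and SIT1 (bottom) from each culture's own 0 min array to 12 min (left) and 20 min (right), 1 point per culture, CHP cultures in red and control cultures in blue, by genotype. ENB1 at 20 min is above 0 in all 21 CHP cultures, and SIT1 at 20 min is below 0 in all of them but grx2 culture 1.

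In the fit over all arrays few of these differences passed the threshold, adjusted p below 0.05. In wild type 0 of 7 members were called at 3, 6, 12 or 20 min, while 0.778%, 12.7%, 30.2% and 38.6% of all genes were. Outside grx2, limma called 4 of 168 member differences (6 genotypes, 4 times), with 8 at an unadjusted p below 0.05. They were SIT1 in glr1 at 12 min (-1.65 ± 0.59, adjusted p = 0.0172), ENB1 in yap1 at 20 min (1.19 ± 0.46, adjusted p = 0.0247), and FIT1 in gpx1 (0.69) and in glr1 (-0.56) at 20 min. At 3, 6, 12 and 20 min the share of all genes called was 1.31%, 23.4%, 40% and 55.9% in glr1, 1.2%, 6.79%, 30.8% and 49.1% in gpx1, and 1.2%, 5.68%, 32.1% and 48.1% in gpx2. It was 1.1%, 6.31%, 30.9% and 48.7% in grx1 and 0.495%, 14.2%, 29.4% and 44.5% in yap1.

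Both FIT1 calls rested on few arrays. In gpx1 FIT1 was at 5.66, 7.45 and 5.72 with CHP, against 5.68, 5.75 and 5.33 in the controls, and without CHP culture 2 the difference was 0.11 (adjusted p = 0.787). In glr1 it was at 5.62, 5.67 and 5.65 with CHP, against 6.50, 6.37 and 5.74 in the controls, and the call was lost without control culture 1 (-0.41) or any of 4 other cultures. Neither SIT1 nor ENB1 kept its call with every culture left out in turn: SIT1 in glr1 at 12 min ran from -1.49 to -1.58 with adjusted p-values of 0.0545 to 0.0719 without control 1, control 2, CHP 2 or CHP 3. ENB1 in yap1 at 20 min ran from 1.12 to 1.20 with adjusted p-values of 0.0537 to 0.0704 without control 2, control 3, CHP 1 or CHP 3.

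Without the grx2 arrays, ENB1 at 20 min rose in 5 of the 6 other genotypes. It differed by 0.94 ± 0.22 in wild type (limma, adjusted p = 1.69e-04), 1.19 in yap1, 1.02 in grx1, 0.77 in gpx2 and 0.62 in gpx1, and by 0.42 in glr1, which was not called (adjusted p = 0.0959). In that fit 41.8% to 58.4% of genes were called at 20 min, with 18% to 30.5% of all genes called higher. In yap1 the rise was called by 12 min, at 1.01 ± 0.22 (adjusted p = 9.67e-05), where ENB1 stood at 11.83, 11.79 and 11.69 with CHP, against 10.84, 10.54 and 10.91 in the controls. With the own 0 min array subtracted it was 0.39 and not called (adjusted p = 0.24), or 0.80 (adjusted p = 0.00126) without yap1 control culture 1, whose ENB1 was low at 0 min. With each culture's own 0 min array subtracted as well, the 20 min values were 1.15 in gpx2, 0.69 in grx1, 0.66 in gpx1, 0.58 in yap1, 0.20 in glr1 and 0.73 in wild type, with the same 5 called. In that fit 34.3% to 50.2% of all genes were called at 20 min, with 16.9% to 25.3% higher. The yap1 value was 1.03 without yap1 control culture 1.

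SIT1 fell without grx2 in glr1, gpx1 and gpx2 at 12 min and in glr1, grx1 and yap1 at 20 min. At 12 min the differences were -1.65 ± 0.20 in glr1 (limma, adjusted p = 2.18e-12), -0.66 in gpx1 and -0.68 in gpx2, against 32.9% to 42.9% of genes called, and -0.45 in wild type, not called (adjusted p = 0.0659). With the own 0 min array subtracted, SIT1 was also called at 12 min in wild type (-0.64 ± 0.15, adjusted p = 4.64e-04) and in grx1 (-0.55), which makes 5 of 6, with yap1 at -0.14 the exception. At 20 min it was called in glr1 (-0.98), gpx1 (-0.47), grx1 (-0.60) and yap1 (-0.97), and not in wild type (-0.26) or gpx2 (-0.30). With that subtraction 24.6% to 38.6% of all genes were called at 12 min, with 13.9% to 21.7% lower. At 20 min 34.3% to 50.2% were called, with 17.4% to 27.1% lower.

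**Figure D4:**
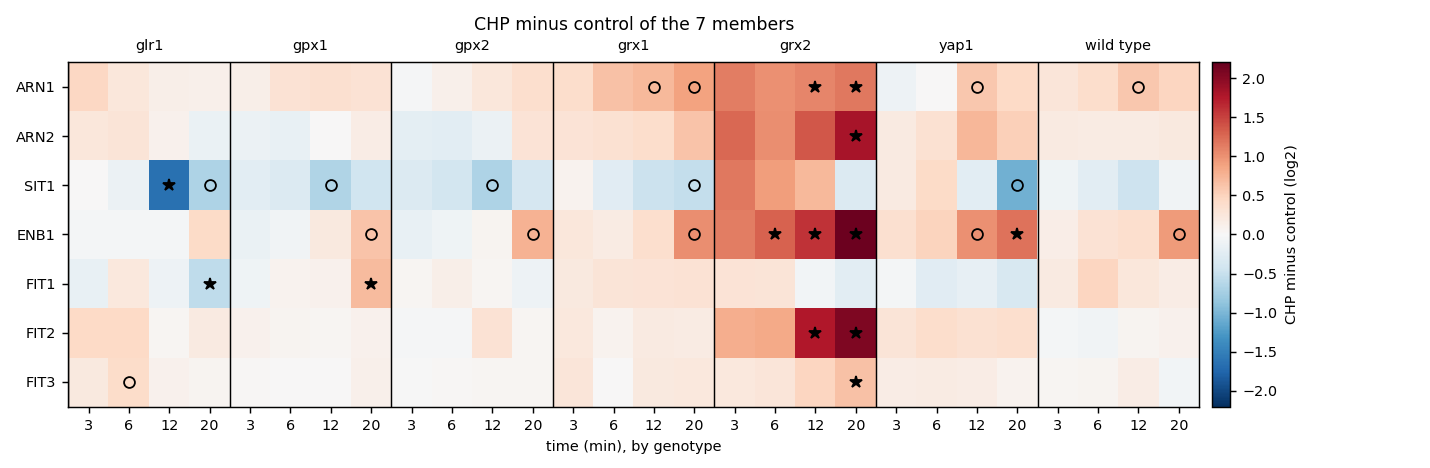
CHP minus control on the log2 scale (colour, red higher and blue lower with CHP) for each member (rows) at 3, 6, 12 and 20 min in each genotype (columns), 3 cultures against 3. Stars mark limma adjusted p below 0.05 over all arrays and open circles those called only without the grx2 arrays; ENB1 is red at 20 min and SIT1 blue at 20 min in every genotype, though SIT1 in wild type is only -0.08.

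The time course of SIT1 differed between genotypes. In glr1, the mutant named for glutathione reductase, it was at 8.84, 8.18 and 8.28 with CHP at 12 min, against 10.39, 10.21 and 9.65 in the controls, and at 9.13, 9.17 and 9.02 against 10.19, 10.10 and 9.07 at 20 min. Control culture 3 was the low one and made the arms overlap at 20 min. In wild type the CHP mean at 12 min was 9.61, and at 20 min 9.89.

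In yap1, the mutant named for a main transcription factor of the peroxide response, the change came later. SIT1 was at 10.16, 10.13 and 10.15 with CHP at 6 min, above the controls at 9.77, 10.01 and 9.39. At 20 min it was at 8.79, 8.49 and 8.76 with CHP, below the controls at 9.66, 9.99 and 9.55. The arms separated upward at 6 min, as 14.6% of all genes did in yap1, and downward at 20 min, as 31.2% did. From their own 0 min values to 6 min the CHP cultures changed by 0.38, 0.26 and 0.01, and the controls by -0.48, 0.11 and -0.50.

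The difference of the mutant's response from that of wild type was tested directly. Over all arrays limma called 0 of 168 such member differences, with 4 at an unadjusted p below 0.05, beside these shares of all genes at 3, 6, 12 and 20 min. The share was 0%, 1.47%, 0.654% and 5.07% in glr1, 0%, 0%, 0% and 0.177% in gpx1, and 0.0177%, 0.0354%, 0.0884% and 0.283% in gpx2. It was 0.354%, 8.29%, 22.5% and 23.2% in yap1, 0%, 0.141%, 0.265% and 28% in grx2, and 0%, 0%, 0% and 0.76% in grx1. Without grx2 it called 2, SIT1 in glr1 at 12 min (-1.19 ± 0.28, adjusted p = 0.00704) and in yap1 at 20 min (-0.98 ± 0.28, adjusted p = 0.00443), where 1.15% and 26.5% of genes were called. With the own 0 min array subtracted it called 4, all SIT1. These were -1.30 ± 0.21 in glr1 at 12 min (adjusted p = 1.92e-05; 0.919% of genes called) and -0.71 in glr1 at 20 min (adjusted p = 0.0437; 2.79%). In yap1 they were 0.92 at 6 min (adjusted p = 0.00303; 3.36%) and -0.71 at 20 min (adjusted p = 0.00914; 22.5%).

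Because the yap1 control array at 0 min stood apart, the last fit was repeated without yap1 control culture 1. The yap1 difference of SIT1 was then 0.82 at 6 min (limma, adjusted p = 0.0181) and -0.86 at 20 min (adjusted p = 0.00171), while CHP minus control in yap1 at 6 min was 0.41 and no longer called (adjusted p = 0.163). The mutants share the wild-type cultures in these differences.

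**Figure D5:**
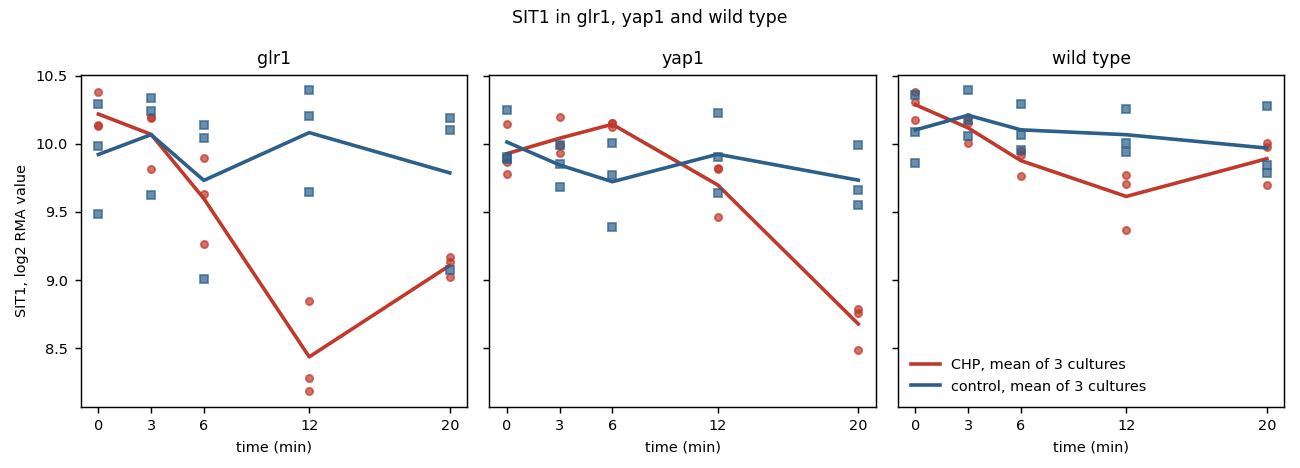
SIT1 log2 RMA value (vertical axis) against time in minutes in glr1, yap1 and wild type, points for single cultures and lines for the mean of 3, CHP cultures in red and control cultures in blue. The CHP points are lowest at 12 min in glr1, at 8.18 to 8.84, and at 20 min in yap1, at 8.49 to 8.79.

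The responses of grx2 carry the split of its cultures, since 1 CHP culture and 2 control cultures were low. Over all arrays limma called 9 of 28 member differences, all higher with CHP: ENB1 at 6, 12 and 20 min, ARN1 and FIT2 at 12 and 20 min, and ARN2 and FIT3 at 20 min. The background was 1.49%, 10.9%, 40.5% and 65.4% of genes at 3, 6, 12 and 20 min. ENB1 at 20 min was 2.15 ± 0.46 higher, at 10.99, 10.74 and 11.46 with CHP against 7.52, 8.66 and 10.54 in the controls. Without the 3 low cultures, which leaves 1 control, ENB1 differed by 0.56 (adjusted p = 0.134), ARN2 by -0.22 and FIT2 by -0.05, and the 3 calls were SIT1 at 12 min (-1.11) and 20 min (-1.56 ± 0.30, adjusted p = 4.00e-06) and FIT1 at 20 min (-0.83, adjusted p = 0.0311), beside 32.6% of genes at 12 min and 59.2% at 20 min.

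With each culture set against its own 0 min array, SIT1 in grx2 fell at 12 min (-0.79 ± 0.24, adjusted p = 0.00532) and 20 min (-1.81 ± 0.24, adjusted p = 4.66e-11), and ENB1 rose at 20 min (1.13 ± 0.32, adjusted p = 0.00135). The SIT1 value holds changes of 1.53 and 1.65 in the low control cultures 1 and 2 by 20 min, against 0.15 in control culture 3. In the CHP cultures SIT1 changed by 0.42, -1.80 and -0.71. The ENB1 value rests on the low CHP culture 1: ENB1 changed by 3.41, 0.41 and 1.42 in the CHP cultures, against 0.17, 1.21 and 0.49 in the controls. Without that culture the ENB1 difference was 0.29 (limma, adjusted p = 0.381) and SIT1 differed by -1.36 at 12 min and -2.36 at 20 min.

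ARN1 at 20 min was above its own 0 min value in 17 of 21 CHP cultures (median 0.45), against 13 of 21 controls (median 0.06). Of all genes, 23.6% were higher in at least 19 CHP cultures at that time. The share for at least 17, which cannot be smaller, is not given here. In grx1 at 20 min ARN1 was at 9.92, 9.41 and 9.64 with CHP, against 8.86, 8.80 and 8.66 in the controls. Of all genes in grx1, 32.3% lay wholly above the controls then. Without grx2, ARN1 rose there by 0.88 ± 0.22 (limma, adjusted p = 3.16e-04). That value holds the high start of grx1 CHP culture 1, at 9.45 at 0 min, where the next culture was at 8.93. From their own 0 min values the CHP cultures changed by 0.48, 0.47 and 0.73, and the controls by 0.06, 0.03 and -0.17. In the fit without grx2, ARN1 was called higher at 12 min in wild type (0.60), grx1 (0.72) and yap1 (0.59). With the own 0 min array subtracted as well, wild type kept its call at 12 min (0.54), while grx1 (0.42, adjusted p = 0.083) and yap1 (0.31, adjusted p = 0.209) did not.

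ARN2, FIT2 and FIT3 were mostly above the controls by small amounts. At 20 min CHP minus control was positive for FIT2 in 7 of 7 genotypes, and for ARN2 and FIT3 in 6 of 7. The share of all genes positive in as many genotypes is not given here. Outside grx2 the highest was 0.37 for FIT2, 0.63 for ARN2 and 0.23 for FIT3. Before CHP the median of CHP minus control over the members was already 0.19 in wild type, 0.30 in glr1 and 0.34 in yap1. It was 0.13 in grx1, 0.59 in grx2, 0.005 in gpx1 and -0.07 in gpx2. Set against own 0 min values, CHP cultures outside grx2 changed by 20 min by medians of 0.06 (FIT2), 0.25 (ARN2) and 0.085 (FIT3). The controls changed by medians of 0.01, 0.11 and 0.05. Without grx2, ARN2 and FIT2 were called in no genotype at 3 to 20 min, and FIT3 in glr1 at 6 min (0.40, adjusted p = 0.0309), which was 0.21 and not called with the own 0 min array subtracted (adjusted p = 0.342). With the own 0 min array subtracted as well, ARN2 fell in glr1 at 12 min (-0.40) and 20 min (-0.64 ± 0.14, adjusted p = 1.06e-04) and rose in gpx2 at 20 min (0.42, adjusted p = 0.0132). The glr1 values depend in part on that subtraction, since control culture 3 began at 9.52, against 10.86 and 10.91 in the other controls. By 20 min ARN2 changed by -0.48, -0.44 and -0.47 in the glr1 CHP cultures. In glr1 controls 1, 2 and 3 it changed by 0.22, -0.27 and 0.56. At 20 min the changes of FIT2 outside grx2 lay between -0.36 and 0.27 in CHP cultures, against -0.32 and 0.78 in controls. Untreated cultures alone showed no call between 0 and 20 min in 49 member values by limma, with 0 at an unadjusted p below 0.05. Of all genes, 0% were called in wild type, gpx1 and grx1, 0.0177% in gpx2, 1.26% in grx2, 3.87% in yap1 and 5.45% in glr1. Single untreated cultures still changed, as FIT2 by -3.02 in grx2 control culture 1 and ENB1 by 1.30 in yap1 control culture 1.

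Among genes of iron handling outside the members, wild type at 20 min of CHP had 11 of 32 higher and 6 lower, beside 16.7% and 21.9% of all genes. The median over the 32 was 0.07 and over all genes -0.04. HMX1, the heme oxygenase that releases iron from heme, rose by 2.27 ± 0.26 (limma, adjusted p = 2.54e-13), FRE1, a surface metal reductase, by 1.80 and ISU2, a scaffold for iron-sulfur clusters, by 1.57. FET4, a low-affinity iron transporter, fell by 1.47, FRE2 by 1.20 and GRX4 by 0.87. The members, with 0 called in either direction in that comparison, had a median of 0.16. Between the same arms at 0 min, before CHP, their median was already 0.19. With own 0 min arrays subtracted and grx2 left out, their median at 20 min was -0.04.

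SIT1 kept closest company with the high-affinity iron uptake pair. By Pearson correlation over the 70 group means, which share arrays and cultures, FET3 was most like SIT1 (r = 0.96; 0.906 over the 28 CHP differences), then FTR1, the iron permease that works with Fet3 (r = 0.902). Without grx2 these were 0.841 and 0.915 over 60 group means. FTR1 in glr1 at 12 min was at 8.55, 8.71 and 8.98 with CHP, against 10.89, 10.58 and 10.25 in the controls, and fell by 1.83 ± 0.38 (limma, adjusted p = 2.52e-05). In yap1 at 20 min FTR1 was at 9.42, 9.03 and 9.40 with CHP, against 10.74, 10.55 and 10.41 in the controls, and fell by 1.28 (adjusted p = 0.00322). FET3 was not called there in the fit over all arrays, at -0.65 ± 0.36 in glr1 at 12 min and -0.07 in yap1 at 20 min. In glr1 at 12 min FET3 was still lower in each CHP culture, at 11.35, 11.23 and 11.65, against 12.02, 12.06 and 12.10 in the controls. Of all genes, 21.3% were separated downward in that way in glr1 at 12 min. In yap1 at 20 min the FET3 values of the arms overlapped.

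ENB1 was most like TIS11 (r = 0.889; 0.514 without grx2), and ARN2 most like COT1, a vacuolar metal transporter (r = 0.92; 0.743 without grx2). GRX2 led for ARN1, FIT2 and FIT3 (r = 0.848 to 0.855), and it is the gene altered in the grx2 mutant, whose group means are the low ones. FIT1 was most like SMF2, a manganese transporter (r = 0.849). Among the members FIT2 and FIT3 were the most alike over all groups (r = 0.954; 0.702 without grx2), and SIT1 and ENB1 had r = 0.634 over all groups and -0.278 without grx2.

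Levels of single control cultures outlasted the sampling. Over the 18 control cultures outside grx2, deviations from the genotype mean at 0 and 20 min correlated for ARN2 (Pearson r = 0.887, permutation p = 0.00646, Spearman rho = 0.756, permutation p = 0.0143) and for SIT1 (r = 0.806, permutation p = 0.0147, rho = 0.732, permutation p = 0.0173). Labels were permuted within genotypes, and 7 such relations were computed, with Benjamini-Hochberg adjusted permutation p = 0.0226 and 0.0257 for these r and 0.032 for both rho. Without the 2 cultures farthest from the median the r were 0.768 and 0.628. FIT1 and FIT3 also passed, ENB1 and FIT2 did not, and for ARN1 r was 0.31 (permutation p = 0.375); the grx2 cultures were kept out because they form separate clusters.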

How the data were processed

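The deposited table holds log2 expression values of Affymetrix Yeast Genome S98 arrays, made by the authors with RMA per the submitters' processing notes. The RMA version, its settings and the set of arrays normalized jointly are unstated in the sources at hand. No depth applies to arrays, and precision is limited by 3 cultures per group. Probe sets were named from the platform annotation, with the brightest on average taken where a gene had several, which left 5656 genes. Locus tags are those of the RefSeq annotation. Coordinates are not printed, as the sources name no build, and promoter motifs and sequences were not analysed here.

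Differences were fitted with limma 3.58.1 in R 4.3.3 over 70 group means (140 residual degrees of freedom), with Benjamini-Hochberg adjustment over all genes and a threshold of 0.05. CHP minus control was tested per genotype and time, the difference of responses at 3, 6, 12 and 20 min, and mutants against wild type at 0 min (6 against 6 cultures). The 5 samples of a culture entered as independent, and their consensus correlation over all genes was 0.264. It does not describe single members, as control cultures outside grx2 kept their ARN2 and SIT1 levels (r = 0.887 and 0.806). Fits with own 0 min arrays subtracted had 112 residual degrees of freedom, or 96 without grx2. These are overstated, because the later samples of a culture share the subtracted array. Labels disagree on whether the 0 min sample was taken before or after CHP was added; the design text gives before. Replicate numbers did not pair cultures across the design (21 same-number pairs, r from -0.371 to 0.722, 13 above 0.1), although all 3 gpx1 pairs exceeded 0.1. Replicates are separate cultures, labelled biological, and p-values measure the spread between them.

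The members and lists were chosen with earlier results of these data known. Genes are named by rule: all members, the 3 highest and 3 lowest called genes of the iron list in a comparison, and the genes most like a member. TIS11, FET3, FTR1, CCC1 and GRX4 beyond that rule were singled out after their values were seen. The fits without grx2, without its 3 low cultures, without grx2 CHP culture 1 and without yap1 control culture 1 were chosen after seeing the data. Alternatives were other normalizations, filters, blocks and settings and each culture left out. On simulated data for the wild-type difference at 20 min the fit recovered 94% of genes changed by 1 log2 unit, or 74% with the own 0 min array subtracted, with 7 and 5 false calls among 5656 genes. The simulated noise was independent between arrays, so it held no lasting differences between cultures. The changed genes were drawn at random from all genes, so these shares do not describe the members.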

Additional observations from a re-analysis of the deposited data

Results flagged for a closer look

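At 0 min the 7 members in the 7 genotypes gave 49 groups of 6 cultures, and in 10 of them the highest or lowest culture stood apart from the other 5 by Dixon's test at the 95% level. Chance flags about 1 in 20 groups. grx1 CHP culture 1 was the highest of its genotype in ARN1 at 9.45, ARN2 at 11.08, SIT1 at 10.32 and ENB1 at 11.09, where the next ARN1, ARN2 and ENB1 values were 8.93, 10.29 and 10.61. yap1 control culture 1 was the lowest in ARN1 at 7.96, ENB1 at 9.57 and FIT3 at 12.62, with the next at 8.62, 10.59 and 13.26, and the highest in FIT1 at 6.01, with the next at 5.60. glr1 control culture 3 was the lowest in ARN2 at 9.52 and ENB1 at 10.15, with the next at 10.82 and 10.80. The low grx2 cultures are not among these, because 3 of 6 were low.

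Responses of SIT1 that differed from the wild-type response stood out in glr1 and yap1 with the own 0 min array subtracted and grx2 left out. In glr1 the difference was -1.30 at 12 min and -0.71 at 20 min, and in yap1 it was 0.92 at 6 min and -0.71 at 20 min (limma, adjusted p-values of 1.92e-05, 0.0437, 0.00303 and 0.00914). The CHP cultures of yap1 were above their own 0 min SIT1 level at 6 min by 0.38, 0.26 and 0.01, and all 3 of wild type were below it. The yap1 controls changed by -0.48, 0.11 and -0.50 by then, so the 0.92 also holds falls in untreated cultures.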

How the results depend on the processing

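The counts of called members depend on how the spread is shared, since the 3 low grx2 cultures widen it for all genotypes. Outside grx2 the 4 called CHP differences became 2 with quantile normalization, 9 with the culture as a random block, 14 with a replicate block, 25 with the genotypes compared alone, 13 with own 0 min arrays subtracted, 19 without all grx2 arrays or without the 3 low cultures, 23 without grx2 and with own arrays subtracted, and 33 without yap1 control culture 1 as well. Leaving out single cultures gave 2 to 10. The share of all genes called outside grx2 at 20 min moved as well. It was 38.6% to 55.9% over all arrays, 41.8% to 58.4% without grx2 and 40.5% to 57.5% without the low cultures. Without grx2 and with own arrays subtracted it was 34.3% to 50.2%, and for the other settings it is not given here. In grx2 the 9 calls became 17 with a replicate block, 0 with the genotypes compared alone and 3 without the low cultures, and 2 to 22 with single cultures left out, the extremes being control 1 and control 3.

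The 0 called differences of response outside grx2 became 1 with a replicate block, the genotypes compared alone or own arrays subtracted, 2 without all grx2 arrays or without the 3 low cultures, 4 with own arrays subtracted and no grx2, 8 without yap1 control culture 1 as well, and 0 to 1 with single cultures left out. In grx2 the 0 became 1 with arrays centred on their medians, 2 with the culture as a random block, 4 with a replicate block, 3 with own arrays subtracted, 1 without the low cultures, and 0 to 10 with single cultures left out. Before CHP the 4 calls outside grx2 became 7 with the culture as a random block, 9 with a replicate block, 13 with the genotypes compared alone, 11 without grx2 or without the low cultures, and 1 to 7 with single cultures left out. In grx2 the 7 became 3 without the low cultures and 6 to 7 with single cultures left out. Between the arms at 0 min the 0 calls (2 at an unadjusted p below 0.05 by limma) became 1 with a replicate block or without the low cultures, and 0 to 3 with single cultures left out. Without all grx2 arrays FIT2 was called between the yap1 arms at 0 min (0.58, adjusted p = 0.038). The drift count of 0 became 1 with a replicate block. The numbers do not pair the cultures across genotypes, where 13 of 21 same-number correlations exceeded 0.1 and 10 of 21 CHP cultures were most like the control of their own number. In gpx1 all 3 pairs exceeded 0.1, and the replicate block left its calls as they were, with FIT1 at 20 min called and SIT1 at 12 min at an adjusted p of 0.0571.

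The iron list in wild type at 20 min kept 13 to 20 calls, against 17. The correlations of control cultures past an adjusted permutation p of 0.05 numbered 5 of 7 with grx2 included, 5 for 12 in place of 20 min, 4 without grx2 and 2 (ARN2 and SIT1) without grx2 for 12 in place of 20 min.

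Directions turned in 10 pairs of a value and a setting where the value was called over all arrays or in that setting. Turns of values called in neither fit were not counted, so more directions depend on the processing. The median over the members in yap1 at 20 min was 0.37 over all arrays. It was -0.14 with own arrays subtracted and no grx2. Among the 10, ARN2 in glr1 at 12 min became -0.40 with own arrays subtracted and no grx2, with or without yap1 control culture 1. SIT1 in grx2 at 12 min became -0.79 with own arrays subtracted, -1.11 without the low cultures and -1.36 with own arrays subtracted and no CHP culture 1, where ENB1 became -0.084. Without them ARN1 at 12 min became -0.039, and at 20 min ARN2 became -0.22, FIT2 -0.051 and FIT3 -0.044, each with 1 control culture, which is assumed to vary like the other groups. Why the others turned was not tested. Calls of the 406 member values were also counted over pairs of a value and a setting, so that 1 value can count several times. Of these pairs, 47 lost and 45 gained a call when a culture was left out, and 38 lost and 210 gained one under the other settings. Signal over background limits FIT1 most.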
